A study of Arabidopsis thaliana with 9 samples.

Results

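Leaves of Arabidopsis thaliana plants that carried 1 copy of atxr6c-1 beside 1 copy of atxr6hyp were set against leaves of plants with 2 copies of atxr6hyp, both in the atxr5 mutant background. The first genotype is labelled atxr5;atxr5;atxr6hyp;atxr6c-1 and is called hyp/c-1 here. The second is labelled atxr5;atxr5;atxr6hyp;atxr6hyp and is called hyp/hyp. Col wild type (WT) leaves were sequenced beside them. All plants were 3 weeks old, and were kept at 22 °C in long days (light for 16 h, darkness for 8 h). Each genotype had 3 RNA-seq libraries. The differences rest on 6 of the 9 libraries of the study, and the 3 WT libraries enter the test only through the spread shared by all genotypes. The labels do not say how many plants went into a library, whether replicates were grown apart, or at what time of day leaves were taken, so p-values measure only the spread between these libraries, which may be technical. Of 27655 genes in the deposited table, 17767 had a mean of at least 1 TPM over the 6 mutant libraries, and these are the genes compared.

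ATXR5 and ATXR6 are SET-domain enzymes of plants that place a single methyl group on H3K27, a mark of heterochromatin that is laid down as DNA is replicated. Loss of both is known for release of silenced repeats, extra replication of heterochromatin and a DNA damage response in leaves. The comparison was made to look for reasons behind abnormalities of development that are seen in hyp/c-1 beyond those of hyp/hyp.

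ATXR5 (AT5G09790, chr5:3038978-3041206, TAIR10.1) was low in both mutants. It had 1.68, 1.70 and 1.54 TPM in hyp/c-1 replicates 1, 2 and 3, against 2.05, 1.96 and 1.496 TPM in hyp/hyp and 4.24, 4.38 and 4.23 TPM in WT, and values below are given in the same replicate order. The mutants overlapped (log2 difference -0.10 with SE 0.11, adjusted p = 0.578). ATXR6 (AT5G24330, chr5:8295110-8297159) had 1, 0 and 2 reads in hyp/c-1, against 0, 2 and 3 reads in hyp/hyp and 40, 41 and 41 reads in WT. Both mutants were therefore at or under the floor of 3 reads, and a difference in ATXR6 RNA between them was not detectable at this depth. Libraries held 21289647 to 38766556 reads assigned to genes, at which 3 reads amount to between 0.0825 and 0.149 TPM for a gene of 2000 bases.

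The 6 mutant libraries did not form 2 tight groups. Along the first principal component of their log2 values, which held 61.9% of the variance, hyp/c-1 lay at 4.97, 16.70 and 40.12 and hyp/hyp at -4.07, -15.78 and -41.94. Replicates 1 of the 2 mutants were therefore neighbours and replicates 3 lay at the 2 ends. The median SD of a gene was 0.164 log2 units in hyp/c-1, 0.124 in hyp/hyp and 0.0853 in WT. A difference between the mutants can thus be of 3 kinds: a step with little spread inside either genotype, a grade along this axis, or the departure of 1 library. The gene groups below are ordered with this in view.

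Between hyp/c-1 and hyp/hyp, 505 genes passed limma's moderated test at a Benjamini-Hochberg adjusted p under 0.05, which is 2.84% of the genes tested. Of these, 342 were higher in hyp/c-1 (1.92%) and 163 were lower (0.917%). At least a 2-fold difference was reached by 92 genes (0.518%), 40 of them higher (0.225%) and 52 lower (0.293%). Differences were small, with a median absolute log2 difference of 0.70 among the 505. They are on the log2(TPM + 1) scale, which understates the change of low genes. In none of the 505 did a hyp/c-1 library overlap a hyp/hyp library, against 11.7% of all tested genes that were higher without overlap and 12.1% that were lower without overlap. The test favours genes without overlap, so this contrast was in part set by the choice of genes. Leaves are mixtures of cell types, and in such bulk RNA fewer cells of a type and less RNA per cell cannot be told apart.

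The width of the gap set these genes apart from each other. In 191 of the 505 (37.8%) the gap between the nearest libraries of the 2 mutants was wider than the whole range inside either mutant, against 2.12% of all tested genes. That held for 145 of the 342 higher genes and 46 of the 163 lower genes. In 138 of the 505 (27.3%) the 6 libraries stood in the order of the first component, against 5.23% of all tested genes. Both traits need libraries that do not overlap, which the test favours, so these shares were in part set by the choice of genes. Over all tested genes 4218 did not overlap, of which 376 had such a gap and 929 stood in that order. The WT mean lay nearer to hyp/hyp for 329 of the 505 and nearer to hyp/c-1 for 176. Among genes of at least 2-fold the WT mean was nearer to hyp/hyp for 34 of the 40 higher genes, but for only 23 of the 52 lower genes. These WT counts were not made over all tested genes, so they do not show a trait particular to the genes that passed.

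These calls were not stable to which libraries were in the fit. With the 6 mutant libraries alone limma called 0 genes, although 3271 had an unadjusted p under 0.05 against 4454 in the fit of 9 libraries. Leaving out hyp/c-1 replicate 1 gave 2861 calls, replicate 2 gave 177 and replicate 3 gave 57. Leaving out hyp/hyp replicate 1 gave 995 calls, replicate 2 gave 1 and replicate 3 gave 5. Without WT replicate 1, 2 or 3, which enter only through the shared spread, the counts were 0, 69 and 140. The shared spread behind the 505 calls was thus drawn in part from WT. The median SD of WT (0.0853 log2 units) was below those of hyp/c-1 (0.164) and hyp/hyp (0.124). For the genes whose calls were most often repeated, the number of the 23 alternative settings in which they passed is given below, and it was at most 16 for the genes named by rule. Other calls were repeated less. Among the least repeated, NIMIN-3 passed in 3 of 23, IAA14 and LTP2 in 4, and AT1G13650 and SIGE in 5. Gene groups are described by how many members passed, how many did not overlap and how the median moved when libraries were left out.

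**Figure D1:**
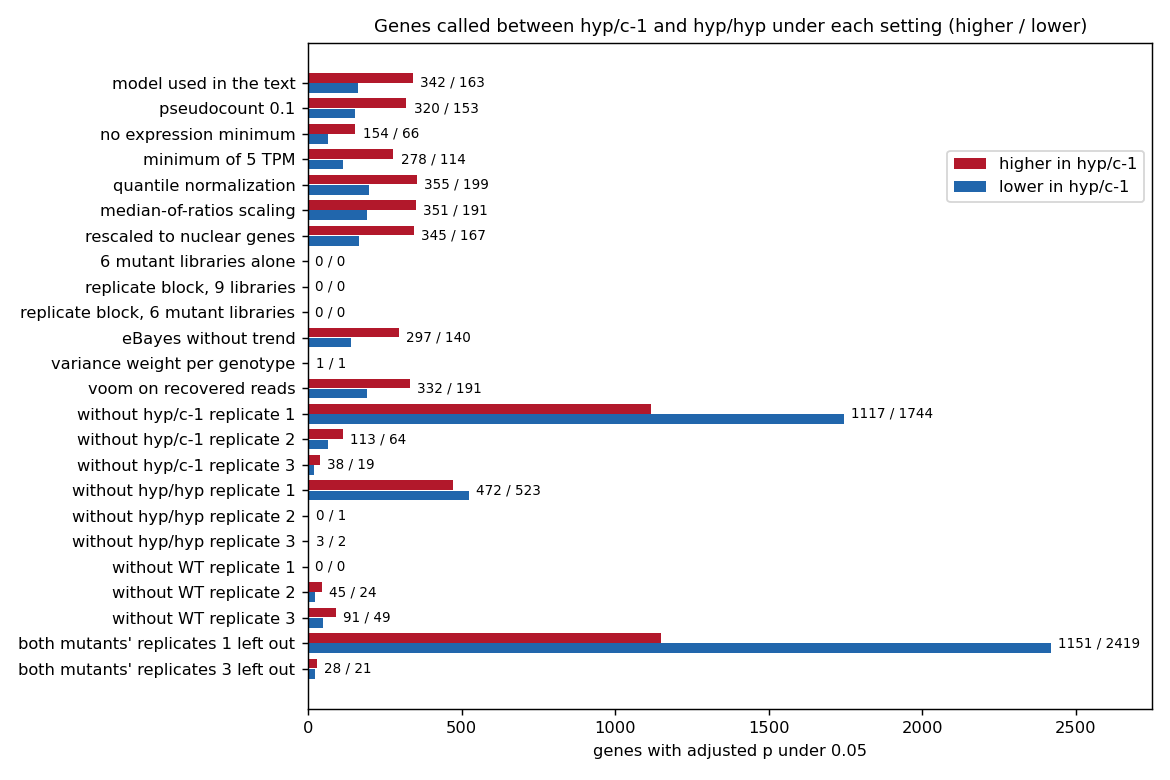
Number of genes with an adjusted p under 0.05 between hyp/c-1 and hyp/hyp (x axis) under each setting (y axis), with genes higher in hyp/c-1 in red and genes lower in hyp/c-1 in blue. The model used in the text called 342 and 163; the count grew to 1117 and 1744 without hyp/c-1 replicate 1 and dropped to 0 with the 6 mutant libraries alone.

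The genes of aliphatic glucosinolate synthesis were higher in hyp/c-1 throughout the list. These defence compounds of cabbage relatives are made from methionine by chain elongation, core synthesis and side-chain modification. All 15 tested genes of the list had a positive log2 difference, which 39.6% of all tested genes had, 13 of them without overlap (11.7% of all tested genes), and 10 rose (1.92% of all tested genes) with 0 that fell. The median log2 difference over the list was 0.93, against -0.06 over all tested genes. It stayed between 0.77 and 1.15 with any single mutant library left out, and was 0.62 with both replicates 3 left out.

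Chain elongation was represented by 5 genes. IPMI2 (AT2G43100), a small subunit of the isopropylmalate isomerase, had 173, 168 and 195 TPM in hyp/c-1, against 102, 88.3 and 62.8 TPM in hyp/hyp and 142, 126.5 and 147 TPM in WT. The lowest hyp/c-1 library was thus far above the highest hyp/hyp library, and hyp/hyp lay below WT. The log2 difference was 1.10 (SE 0.16, adjusted p = 0.0236), and IPMI2 passed in 16 of 23 alternatives. Its partner IPMI1 (AT3G58990) had 115, 99.4 and 172 TPM in hyp/c-1, against 73.1, 54.3 and 44.3 TPM in hyp/hyp. The aminotransferase BCAT4 (AT3G19710), which starts the pathway, also rose, by 0.70 on the log2 scale (adjusted p = 0.0388). The synthases MAM1 (AT5G23010) and IMS2 (AT5G23020) had log2 differences of 0.41 and 0.43 and did not pass (adjusted p = 0.109 and 0.0908).

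Core synthesis begins with the cytochromes P450 CYP79F1 (AT1G16410) and CYP79F2 (AT1G16400), which convert chain-elongated methionine to aldoximes. CYP79F1 had 212, 205 and 255 TPM in hyp/c-1, against 134, 106 and 72.3 TPM in hyp/hyp (log2 difference 1.13 with SE 0.21, adjusted p = 0.0332). CYP79F2 had 9.27, 8.41 and 11.2 TPM in hyp/c-1, against 5.26, 3.96 and 3.06 TPM in hyp/hyp (log2 difference 1.08 with SE 0.16, adjusted p = 0.0247). The 2 genes are close tandem copies, so reads may have been divided between them. CYP83A1 (AT4G13770), the next enzyme, was the most abundant member, with 592, 541 and 597 TPM in hyp/c-1, against 417, 365 and 301 TPM in hyp/hyp and 330, 294 and 351 TPM in WT (log2 difference 0.69 with SE 0.12, adjusted p = 0.0276). The sulfotransferase SOT18 (AT1G74090) rose by 0.88 (adjusted p = 0.0374), while SOT17 (AT1G18590) had a difference of 0.51 and did not pass (adjusted p = 0.0964). In each of the 4 that rose, all hyp/c-1 libraries were above all hyp/hyp libraries.

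Side-chain oxidation and regulation moved with synthesis. FMO GS-OX3 (AT1G62560), an S-oxygenating flavin monooxygenase, had 31.9, 30.6 and 53.4 TPM in hyp/c-1, against 19.0, 16.1 and 10.98 TPM in hyp/hyp (log2 difference 1.26 with SE 0.26, adjusted p = 0.0398). MYB29 (AT5G07690), a regulator of the pathway, had 33.9, 30.6 and 44.4 TPM in hyp/c-1, against 20.8, 16.8 and 10.8 TPM in hyp/hyp and 15.2, 10.8 and 17.1 TPM in WT (adjusted p = 0.0388). MYB28 (AT5G61420), the other main regulator, had 82.8, 58.4 and 82.5 TPM in hyp/c-1, against 64.2, 58.6 and 60.1 TPM in hyp/hyp, and its replicates overlapped (log2 difference 0.27, adjusted p = 0.218). The 2 regulators had different values, and the difference between them was not tested.

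**Figure D2:**
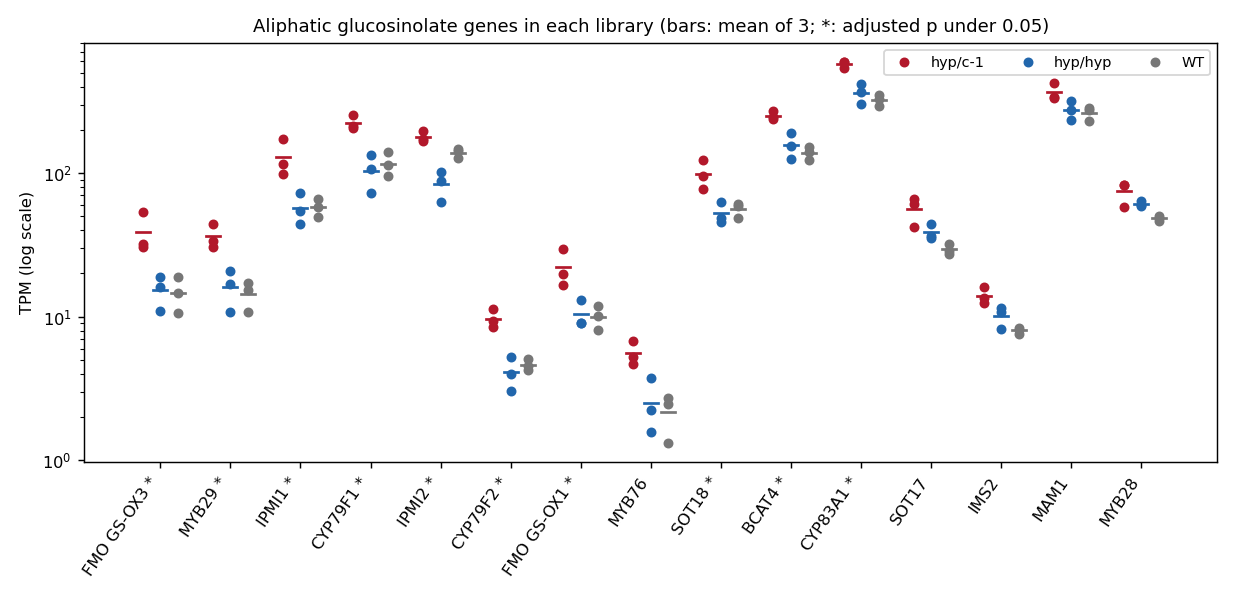
TPM (log scale) of the 15 tested aliphatic glucosinolate genes in each library of hyp/c-1 (red), hyp/hyp (blue) and WT (grey), with points for libraries, bars for the mean of 3 and an asterisk for genes that passed. In 13 of the 15 the 3 hyp/c-1 points stand above the 3 hyp/hyp points; MYB28 at the right is 1 of the 2 that overlap.

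Genes outside the list that act on the same compounds were looked up after their values had been seen. AOP1 (AT4G03070), a dioxygenase related to the enzymes that modify glucosinolate side chains, had 11.6, 11.9 and 11.2 TPM in hyp/c-1, against 7.13, 6.23 and 5.40 TPM in hyp/hyp (log2 difference 0.80 with SE 0.11, adjusted p = 0.019). NSP5 (AT5G48180), a nitrile specifier protein of glucosinolate breakdown, had 68.8, 64.6 and 68.2 TPM in hyp/c-1, against 47.1, 44.2 and 42.7 TPM in hyp/hyp and 48.1, 45.7 and 47.6 TPM in WT (log2 difference 0.58 with SE 0.07, adjusted p = 0.019). Both showed a step, with hyp/c-1 libraries close together above hyp/hyp. The related group of camalexin and indole glucosinolate genes did not share the direction. Its 15 tested genes had a median of -0.32, and 0 passed in limma, with 8 at an unadjusted p under 0.05, which 25.1% of all tested genes had, and CYP81F2 (AT5G57220), an indole glucosinolate hydroxylase, nearest to passing (log2 difference -1.15, adjusted p = 0.0584).

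Sulfur and nitrate assimilation supply the precursors of methionine and cysteine. Of 26 tested genes, 4 rose and 0 fell, 12 were higher and 1 was lower without overlap, and the median was 0.34. Over all tested genes 1.92% rose and 11.7% were higher without overlap. By library the list was nearly level inside each mutant, with medians of 0.17, 0.17 and 0.18 log2 units above the mean of the 6 libraries in hyp/c-1 and of -0.09, -0.22 and -0.16 in hyp/hyp. APR2 (AT1G62180), the main adenosine phosphosulfate reductase, had 70.5, 71.0 and 89.5 TPM in hyp/c-1, against 43.7, 43.5 and 45.4 TPM in hyp/hyp and 36.8, 35.6 and 38.4 TPM in WT (log2 difference 0.78 with SE 0.10, adjusted p = 0.019). APR1 (AT4G04610), a second reductase, had 96.8, 76.0 and 115 TPM in hyp/c-1, against 61.3, 47.4 and 51.7 TPM in hyp/hyp (adjusted p = 0.0348). The 3 libraries of each mutant were closer together for APR2 than the gap between the mutants, and APR2 passed in 16 of 23 alternatives.

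LSU2 (AT5G24660), a marker of sulfur shortage, had 31.5, 27.5 and 40.9 TPM in hyp/c-1, against 15.1, 13.7 and 22.1 TPM in hyp/hyp (log2 difference 0.94 with SE 0.19, adjusted p = 0.0384). NRT1.5 (AT1G32450), a nitrate transporter, had 10.5, 8.49 and 10.3 TPM in hyp/c-1, against 5.69, 5.37 and 4.37 TPM in hyp/hyp and 3.32, 3.39 and 3.47 TPM in WT (log2 difference 0.81 with SE 0.11, adjusted p = 0.0236). MS2 (AT3G03780), a methionine synthase chosen by the size of its change, had 65.7, 88.4 and 136 TPM in hyp/c-1, against 45.0, 41.3 and 30.9 TPM in hyp/hyp (log2 difference 1.24 with SE 0.25, adjusted p = 0.0388). Unlike the 2 reductases, MS2 stood in the order of the first component. APR1, APR2 and NRT1.5 overlap other annotated genes, and the strand of the counts is not given in the sources used here, so reads of the partners cannot be told apart.

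Chaperones of the endoplasmic reticulum (ER), which fold secreted proteins, were higher in hyp/c-1 where they passed. Of 16 tested genes 3 rose and 0 fell, 10 were higher and 1 was lower without overlap, and 7 had a gap wider than the range inside either mutant, which 2.12% of all tested genes had. Over all tested genes 1.92% rose and 11.7% were higher without overlap. The median of 0.28 stayed between 0.26 and 0.29 whichever single mutant library was left out, and was 0.28 with both replicates 3 left out and 0.26 with both replicates 1 left out. BIP3 (AT1G09080), the stress-induced member of the BiP chaperones, had 9.64, 10.5 and 12.4 TPM in hyp/c-1, against 4.83, 6.03 and 5.58 TPM in hyp/hyp and 0.880, 0.817 and 0.950 TPM in WT (log2 difference 0.87 with SE 0.12, adjusted p = 0.019). UTR3 (AT1G14360), a UDP-sugar transporter of the ER, had 23.7, 26.3 and 25.4 TPM in hyp/c-1, against 17.7, 16.5 and 16.8 TPM in hyp/hyp (log2 difference 0.54 with SE 0.08, adjusted p = 0.0236). CRT1b (AT1G09210), a calreticulin, had 48.8, 51.6 and 59.8 TPM in hyp/c-1, against 37.5, 34.9 and 37.6 TPM in hyp/hyp (log2 difference 0.53 with SE 0.09, adjusted p = 0.0276). In all 3 the genotypes ran in the order hyp/c-1, hyp/hyp, WT, from high to low.

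Other members had smaller differences. SHD (AT4G24190), the ER member of the HSP90 family, had 170, 178 and 181 TPM in hyp/c-1, against 135, 151 and 149 TPM in hyp/hyp and 112, 119 and 115 TPM in WT (log2 difference 0.28, adjusted p = 0.067). BZIP60 (AT1G42990) and BZIP28 (AT3G10800), the transcription factors of the ER stress response, did not share it. BZIP60 had 100, 114 and 80.2 TPM in hyp/c-1, against 116, 142 and 346.5 TPM in hyp/hyp (log2 difference -0.87, adjusted p = 0.14), with hyp/hyp replicate 3 far above every other library.

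Promoters of this list were rich in the G-box CACGTG, a core of the sites that bZIP and bHLH factors bind. On either strand of the 250 bases before to 50 bases after the start of a gene, it was found in 68.8% of the 16 promoters. Its share was 8.91% of the promoters of all tested genes with an entry. The G-box did not go with 1 direction of change. Among genes that passed it stood in 11.1% of those higher in hyp/c-1 and 13.5% of those lower. It also stood in 36.8% of the cold-regulated promoters and 21.2% of those of the rapid stress factors, lists described below that were lower in hyp/c-1. The RefSeq sequences (TAIR10.1) of the 250 bases before the start of BIP3 (minus strand, chr1:2931851-2932100) and UTR3 (minus strand, chr1:4913168-4913417) are shown as examples among the genes that rose, with the G-box in capitals. No other annotated gene lies in either window, but UTR3 itself overlaps another annotated gene.
BIP3: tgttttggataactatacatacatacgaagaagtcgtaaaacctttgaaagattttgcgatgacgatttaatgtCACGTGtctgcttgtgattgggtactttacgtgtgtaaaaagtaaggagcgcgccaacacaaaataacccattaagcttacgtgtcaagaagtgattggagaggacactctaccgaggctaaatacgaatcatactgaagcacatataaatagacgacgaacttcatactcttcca
UTR3: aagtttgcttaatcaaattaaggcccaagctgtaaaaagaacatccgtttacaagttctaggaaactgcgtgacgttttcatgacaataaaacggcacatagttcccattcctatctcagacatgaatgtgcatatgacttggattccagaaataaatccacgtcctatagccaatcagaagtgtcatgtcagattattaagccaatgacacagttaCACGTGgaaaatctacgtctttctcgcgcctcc
A match of these letters is a description and does not show that a factor binds there.

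**Figure D3:**
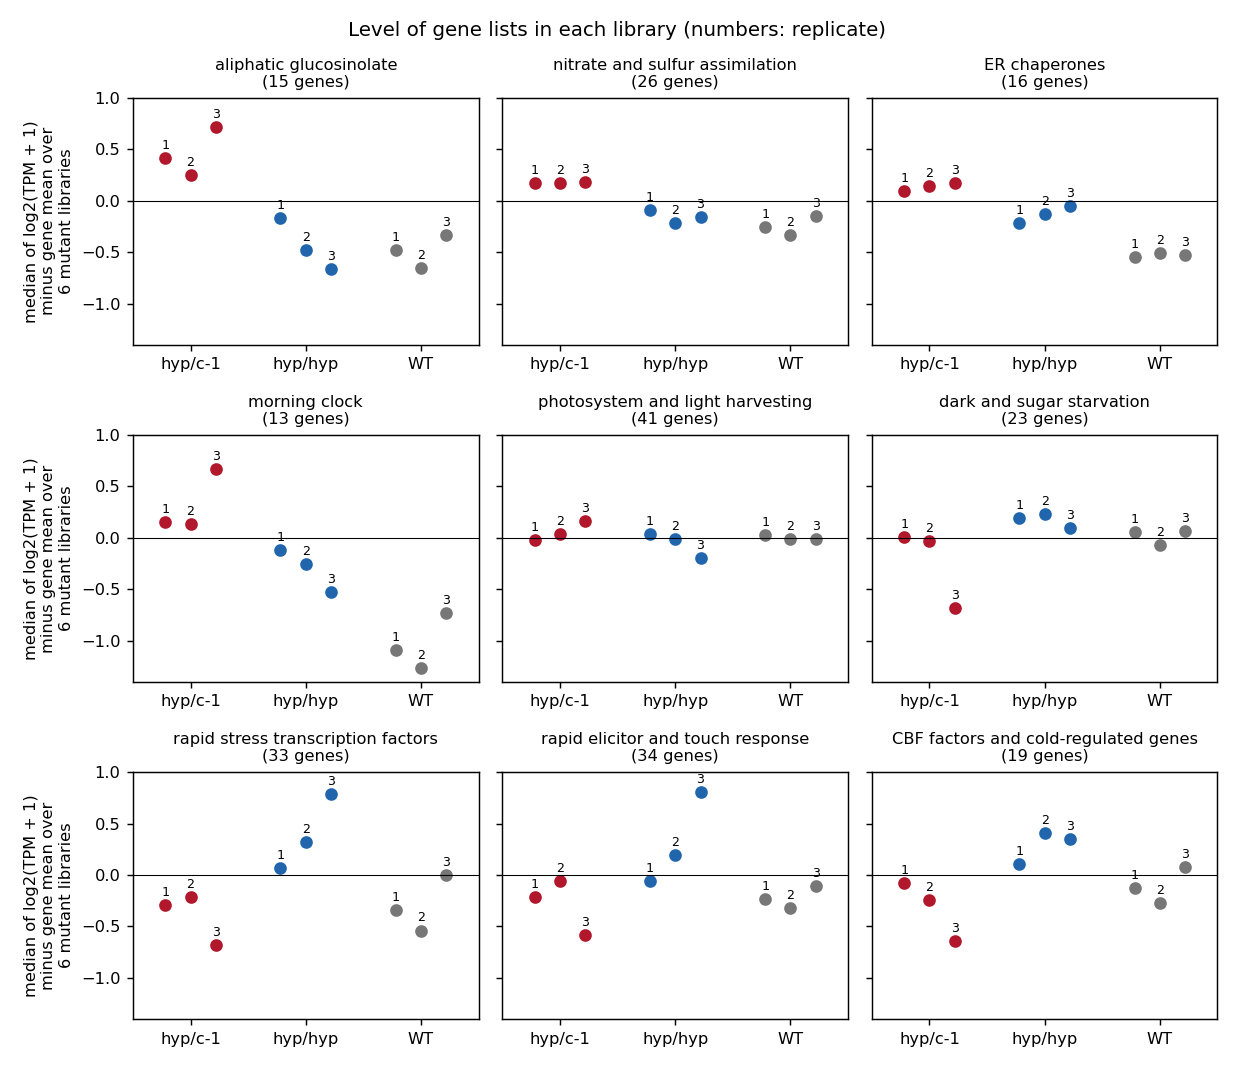
Median over the members of 9 gene lists of log2(TPM + 1) minus each gene's mean over the 6 mutant libraries (y axis), by library of hyp/c-1 (red), hyp/hyp (blue) and WT (grey), with the replicate number above each point. Nitrate and sulfur assimilation is nearly level inside each mutant, the rapid stress factors run from -0.68 in hyp/c-1 replicate 3 to 0.79 in hyp/hyp replicate 3, and in dark and sugar starvation hyp/c-1 replicate 3 stands apart at -0.68.

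Phenylpropanoid genes, which lead to lignin and flavonoids, were higher in hyp/c-1 where they passed. In the list of secondary cell wall and lignin genes 5 of 29 rose and 0 fell, 11 were higher and 0 were lower without overlap, and the median was 0.15. Over all tested genes 1.92% rose and 11.7% were higher without overlap. PAL1 (AT2G37040), which opens the pathway by deaminating phenylalanine, had 30.4, 32.2 and 31.0 TPM in hyp/c-1, against 19.0, 22.2 and 18.4 TPM in hyp/hyp and 13.9, 12.9 and 16.5 TPM in WT (log2 difference 0.63 with SE 0.11, adjusted p = 0.0274). The methyltransferase OMT1 (AT5G54160) had 84.0, 88.0 and 94.5 TPM in hyp/c-1, against 65.7, 66.6 and 58.8 TPM in hyp/hyp and 91.5, 90.5 and 84.4 TPM in WT (log2 difference 0.47 with SE 0.08, adjusted p = 0.0274). PAL1 in WT was thus below both mutants, whereas OMT1 in WT overlapped hyp/c-1. 4CL1 (AT1G51680) and C4H (AT2G30490), the ligase and the hydroxylase between them, rose by 0.51 and 0.34 (adjusted p = 0.0364 and 0.0444). Among 12 tested flavonoid genes 11 had a higher mean, against 39.6% of all tested genes, and 1 rose. It was the anthocyanin regulator PAP1 (AT1G56650), with 4.81, 3.85 and 4.33 TPM in hyp/c-1, against 2.10, 2.17 and 1.003 TPM in hyp/hyp (log2 difference 0.98 with SE 0.20, adjusted p = 0.0395).

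Genes of the leaf surface and of water transport were higher in hyp/c-1 where they passed. Of 26 cuticle and wax genes 3 rose and 0 fell, where 1.92% of all tested genes rose. CER3 (AT5G57800), needed for wax alkanes, had 42.4, 43.6 and 34.4 TPM in hyp/c-1, against 28.0, 26.9 and 18.9 TPM in hyp/hyp and 50.8, 50.6 and 48.1 TPM in WT (log2 difference 0.70 with SE 0.14, adjusted p = 0.0396). LP1 (AT2G38540), a lipid transfer protein, had 788, 1166 and 1541 TPM in hyp/c-1, against 650, 597 and 554 TPM in hyp/hyp (adjusted p = 0.0439), and varied more inside hyp/c-1 than CER3 did. LTP2 (AT2G38530), its neighbour on the chromosome, rose by 0.88 (adjusted p = 0.0478). Among 28 tested aquaporin genes 3 rose and 0 fell. PIP2B (AT2G37170), a plasma membrane aquaporin, had 137, 123 and 132 TPM in hyp/c-1, against 97.2, 92.1 and 81.7 TPM in hyp/hyp (log2 difference 0.53 with SE 0.09, adjusted p = 0.0274). PIP1;4 (AT4G00430) and PIP1B (AT2G45960) rose by 0.76 and 0.64 (adjusted p = 0.0374 and 0.0396).

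Morning genes of the circadian clock were higher in hyp/c-1, and 3 of 13 stood in the order of the first component (5.23% of all tested genes). Of 13 tested genes 12 had a higher mean and 7 were higher without overlap, but only 1 passed. Over all tested genes 39.6% had a higher mean, 11.7% were higher without overlap and 1.92% rose. The list's level was 0.15, 0.13 and 0.67 in hyp/c-1, against -0.12, -0.25 and -0.53 in hyp/hyp and -1.09, -1.27 and -0.73 in WT, so both mutants stood above WT and the gap between them was widest at replicates 3. The median difference was 0.51, and 0.35 with both replicates 3 left out. LNK3 (AT3G12320), a co-activator of morning loops, had 14.4, 13.9 and 23.5 TPM in hyp/c-1, against 10.1, 8.38 and 6.60 TPM in hyp/hyp and 3.56, 2.54 and 3.31 TPM in WT (log2 difference 0.95 with SE 0.21, adjusted p = 0.0438). CCA1 (AT2G46830), the core morning repressor, had 13.3, 13.7 and 19.96 TPM in hyp/c-1, against 10.9, 9.67 and 6.29 TPM in hyp/hyp and 1.21, 0.992 and 2.26 TPM in WT, and did not pass (log2 difference 0.75, adjusted p = 0.0981).

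Evening genes had a median of -0.24 over 16 tested members, and -0.08 with both replicates 3 left out. The 1 member that passed was CDF1 (AT5G62430), a repressor of flowering genes. Its protein is broken down by members of the list, while its RNA went against the list's median. CDF1 had 8.14, 13.2 and 16.3 TPM in hyp/c-1, against 5.94, 5.75 and 4.24 TPM in hyp/hyp (log2 difference 1.06 with SE 0.21, adjusted p = 0.0369). TOC1 (AT5G61380), the core evening repressor, had 66.6, 66.6 and 42.7 TPM in hyp/c-1, against 77.5, 92.5 and 103 TPM in hyp/hyp and 119, 122 and 116 TPM in WT (log2 difference -0.64, adjusted p = 0.0648). Of 13 clock output genes 3 rose and 1 fell, where 1.92% of all tested genes rose and 0.917% fell. The CONSTANS-like factor COL2 (AT3G02380) had 5.89, 5.55 and 5.68 TPM in hyp/c-1, against 3.87, 4.05 and 4.01 TPM in hyp/hyp (log2 difference 0.43 with SE 0.08, adjusted p = 0.0374), with little spread in either. GRP7 (AT2G21660), an RNA-binding protein of a clock-driven feedback loop, fell to 2847, 2193 and 1974 TPM in hyp/c-1, against 3398, 3636 and 4599 TPM in hyp/hyp and 3861, 4376 and 3998 TPM in WT (log2 difference -0.73 with SE 0.15, adjusted p = 0.0392). LNK3 and COL2 overlap other annotated genes.

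The promoters of LNK3 and GRP7 are shown because they carry the 2 best known clock motifs and the 2 genes changed in opposite directions. The G-box was found in 76.9% of the 13 morning promoters. The evening element AAAATATCT was found in 37.5% of the 16 evening promoters, against 3.20% of the promoters of all tested genes, in either strand. Among the genes that passed, it stood in 2.92% of those higher in hyp/c-1 and in 6.13% of those lower. The capitals mark the G-box in LNK3 (plus strand, chr3:3923265-3923514, TAIR10.1) and the evening element, on either strand, in GRP7 (minus strand, chr2:9266558-9266807, TAIR10.1).
LNK3: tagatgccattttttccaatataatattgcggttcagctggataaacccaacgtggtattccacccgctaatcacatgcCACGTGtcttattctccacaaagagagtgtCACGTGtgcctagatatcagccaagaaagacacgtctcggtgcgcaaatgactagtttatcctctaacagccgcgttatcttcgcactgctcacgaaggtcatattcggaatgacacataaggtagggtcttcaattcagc
GRP7: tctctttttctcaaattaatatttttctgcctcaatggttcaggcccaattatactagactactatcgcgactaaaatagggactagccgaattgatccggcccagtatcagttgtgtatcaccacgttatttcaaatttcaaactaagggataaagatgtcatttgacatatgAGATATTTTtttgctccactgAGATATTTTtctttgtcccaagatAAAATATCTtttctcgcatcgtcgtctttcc
The LNK3 window holds 2 G-boxes and the GRP7 window 3 evening elements.

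Transcription factors that respond within minutes to wounding, chill or elicitors were lower in hyp/c-1, and replicates 3 lay furthest apart. The order of the first component was kept by 7 of 33 (5.23% of all tested genes). Of 33 tested genes 30 had a lower mean, 19 were lower without overlap (12.1% of all tested genes), 5 fell (0.917% of all tested genes) and 1 rose. The level of the list was -0.29, -0.21 and -0.68 in hyp/c-1, against 0.07, 0.32 and 0.79 in hyp/hyp and -0.34, -0.54 and 0.00 in WT. The median difference of -0.79 went from -0.94 to -0.62 with single libraries left out and was -0.47 with both replicates 3 left out, so its size but not its sign rested on the outer libraries. ZAT11 (AT2G37430), a zinc-finger repressor, fell to 2.98, 3.71 and 1.97 TPM in hyp/c-1, against 6.91, 9.29 and 14.3 TPM in hyp/hyp and 4.33, 4.15 and 7.07 TPM in WT (log2 difference -1.49 with SE 0.26, adjusted p = 0.0278). ZAT6 (AT5G04340), a related factor, fell to 36.9, 25.1 and 28.4 TPM in hyp/c-1, against 61.3, 64.0 and 78.1 TPM in hyp/hyp and 32.5, 30.5 and 60.8 TPM in WT (log2 difference -1.15 with SE 0.24, adjusted p = 0.0396). MYB51 (AT1G18570), a regulator of indole glucosinolates, fell by 1.05 on the log2 scale (SE 0.23, adjusted p = 0.0426). ZAT11 in hyp/c-1 was below every WT library, whereas ZAT6 in hyp/c-1 overlapped WT.

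The member of that list that rose was WRKY60 (AT2G25000), a W-box-binding factor, with 15.6, 12.0 and 13.4 TPM in hyp/c-1, against 8.15, 7.93 and 10.1 TPM in hyp/hyp and 10.4, 12.1 and 10.4 TPM in WT (log2 difference 0.59 with SE 0.12, adjusted p = 0.039). Its relative WRKY40 (AT1G80840) averaged 27.9 ± 11.2 TPM in hyp/c-1, against 115 ± 75.2 TPM in hyp/hyp (SD, n = 3 each), and did not pass (log2 difference -1.90 with SE 0.45, adjusted p = 0.0522). The larger of the 2 differences had the wider spread. Among 60 tested AP2/ERF genes 5 fell and 0 rose, and 23 were lower without overlap. Over all tested genes 0.917% fell and 12.1% were lower without overlap. ERF13 (AT2G44840) fell to 3.41, 3.40 and 2.83 TPM in hyp/c-1, against 6.74, 10.96 and 22.2 TPM in hyp/hyp (log2 difference -1.62 with SE 0.36, adjusted p = 0.0472). EBP (AT3G16770), an ethylene-responsive factor, fell less but more evenly, to 384, 355 and 328.5 TPM in hyp/c-1, against 529, 449 and 496 TPM in hyp/hyp and 336, 363 and 352 TPM in WT (log2 difference -0.46 with SE 0.09, adjusted p = 0.0355). ERF-1 (AT4G17500) and ORA47 (AT1G74930) fell by 0.78 and 0.86 (adjusted p = 0.0438 and 0.0449).

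Early elicitor and touch genes were also lower in hyp/c-1, and here the levels of the list met between the mutants. Of 34 tested genes 32 had a lower mean, 15 were lower without overlap and 3 fell. Over all tested genes 12.1% were lower without overlap and 0.917% fell. The order of the first component was kept by 5 of the 34 (5.23% of all tested genes). The level of the list was -0.21, -0.06 and -0.58 in hyp/c-1, against -0.06, 0.19 and 0.81 in hyp/hyp, and its median difference of -0.60 shrank to -0.29 with both replicates 3 left out. PP2-A5 (AT1G65390), a lectin-like phloem protein homologue, fell to 3.43, 3.99 and 1.70 TPM in hyp/c-1, against 8.23, 14.8 and 32.9 TPM in hyp/hyp and 12.2, 10.7 and 9.02 TPM in WT (log2 difference -2.12 with SE 0.40, adjusted p = 0.0348). CML38 (AT1G76650), a calmodulin-like protein, fell to 28.1, 30.1 and 13.1 TPM in hyp/c-1, against 55.9, 75.2 and 176 TPM in hyp/hyp and 34.1, 22.5 and 36.4 TPM in WT (log2 difference -1.97 with SE 0.42, adjusted p = 0.0412). PP2-A5 in hyp/c-1 was below all WT libraries, while CML38 in hyp/c-1 overlapped them. TCH3 (AT2G41100), a touch-induced calmodulin-like gene that overlaps another annotated gene, fell by 0.98 (SE 0.22, adjusted p = 0.0459).

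The W-box is the site of WRKY factors, and its form TTGACC stood on either strand of 27.3% of the 33 promoters of the rapid stress factors and 26.5% of the 34 of the elicitor list, against 14.4% of the promoters of all tested genes. The other form counted, TTGACT, stood in 30.3% and 38.2% of these lists, but also in 34.6% of the sulfur and nitrate promoters. Among genes that passed, TTGACT stood in 25.2% of those lower in hyp/c-1 and 21.9% of those higher. Its share over all tested genes was 21.9%. TTGACC stood in 19.0% of the genes that passed lower in hyp/c-1 and 12.0% of those higher. Among lists without a gene that fell, TTGACC stood in 18.8% of ER chaperone promoters and 7.69% of sulfur and nitrate promoters. Promoters of 3 genes that fell are shown with this W-box in capitals, in TTGACC or its reverse complement GGTCAA: ZAT11 (plus strand, chr2:15706035-15706284), CML38 (minus strand, chr1:28768139-28768388) and PP2-A5 (plus strand, chr1:24292122-24292371), all TAIR10.1.
ZAT11: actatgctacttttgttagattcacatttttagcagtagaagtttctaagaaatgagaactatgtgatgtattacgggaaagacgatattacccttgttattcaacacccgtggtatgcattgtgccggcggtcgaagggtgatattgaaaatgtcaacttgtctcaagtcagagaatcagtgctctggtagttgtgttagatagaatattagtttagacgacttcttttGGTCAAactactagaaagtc
CML38: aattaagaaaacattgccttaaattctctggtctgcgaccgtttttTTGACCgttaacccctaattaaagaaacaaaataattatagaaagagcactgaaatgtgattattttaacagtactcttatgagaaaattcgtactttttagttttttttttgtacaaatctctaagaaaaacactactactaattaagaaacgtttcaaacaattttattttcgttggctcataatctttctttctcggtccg
PP2-A5: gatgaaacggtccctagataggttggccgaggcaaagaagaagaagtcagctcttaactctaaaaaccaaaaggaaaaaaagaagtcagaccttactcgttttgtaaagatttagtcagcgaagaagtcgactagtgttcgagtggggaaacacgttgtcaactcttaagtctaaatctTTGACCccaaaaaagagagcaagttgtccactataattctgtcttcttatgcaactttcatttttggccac
Each window holds 1 such W-box.

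Cold-regulated genes were lower in hyp/c-1, with 17 of 19 tested members at a lower mean, 14 lower without overlap, 3 that fell and 0 that rose, and a median of -0.67. Over all tested genes 12.1% were lower without overlap and 0.917% fell. CBF1 (AT4G25490), a master factor of cold acclimation, fell to 4.29, 4.24 and 3.15 TPM in hyp/c-1, against 6.57, 9.29 and 11.7 TPM in hyp/hyp and 3.50, 3.10 and 5.29 TPM in WT (log2 difference -1.03 with SE 0.21, adjusted p = 0.0388). COR413IM1 (AT1G29395), a chloroplast membrane protein, fell to 222, 205 and 198 TPM in hyp/c-1, against 282, 297 and 272 TPM in hyp/hyp and 256, 272 and 278 TPM in WT (log2 difference -0.44 with SE 0.08, adjusted p = 0.0274). COR15B (AT2G42530) fell by 0.44 (SE 0.08, adjusted p = 0.0351) with 52.6, 54.0 and 58.6 TPM in hyp/c-1, against 69.5, 79.9 and 75.6 TPM in hyp/hyp and 115, 119 and 127 TPM in WT. The factor CBF1 was graded and lay highest in hyp/hyp, whereas the 2 effector genes were steps and COR15B lay highest in WT.

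The jasmonate lists held 1 gene that passed, where 2.84% of all tested genes did. Among 13 synthesis genes and 15 JAZ and MYC regulators 0 passed in limma, with 5 and 6 at an unadjusted p under 0.05, which 25.1% of all tested genes had. LOX4 (AT1G72520), a lipoxygenase of the pathway, had 21.7, 29.5 and 10.7 TPM in hyp/c-1, against 29.2, 52.9 and 159 TPM in hyp/hyp (log2 difference -1.67 with SE 0.54, adjusted p = 0.105). The repressor JAZ8 (AT1G30135) had 4.61, 6.10 and 1.18 TPM in hyp/c-1, against 6.20, 11.6 and 36.3 TPM in hyp/hyp (log2 difference -1.76 with SE 0.57, adjusted p = 0.105). Among 11 response and turnover genes 1 fell, ST2A (AT5G07010), a sulfotransferase of hydroxyjasmonate, to 3.40, 2.33 and 1.19 TPM in hyp/c-1, against 12.2, 6.69 and 6.09 TPM in hyp/hyp (log2 difference -1.50 with SE 0.28, adjusted p = 0.0344). In ST2A, unlike LOX4 and JAZ8, replicate 1 was the highest of hyp/hyp. The median of the response list was -0.17, and 0.04 with both replicates 3 left out.

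Ethylene genes had a lower mean in hyp/c-1 in 19 of 20 tested members, with 7 lower without overlap, 2 that fell and a median of -0.39. Over all tested genes 39.6% had a higher mean, 12.1% were lower without overlap and 0.917% fell. Both that fell encode ethylene receptors, which repress the response when no ethylene is bound. ERS1 (AT2G40940) fell to 57.8, 43.3 and 35.1 TPM in hyp/c-1, against 74.6, 77.8 and 75.4 TPM in hyp/hyp and 62.9, 64.0 and 70.8 TPM in WT (log2 difference -0.76 with SE 0.15, adjusted p = 0.0372). ERS2 (AT1G04310) fell to 1.82, 1.66 and 1.49 TPM in hyp/c-1, against 3.60, 4.32 and 2.64 TPM in hyp/hyp and 3.42, 3.81 and 4.74 TPM in WT (log2 difference -0.75 with SE 0.15, adjusted p = 0.0392). In both receptors hyp/c-1 was below WT as well.

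**Figure D4:**
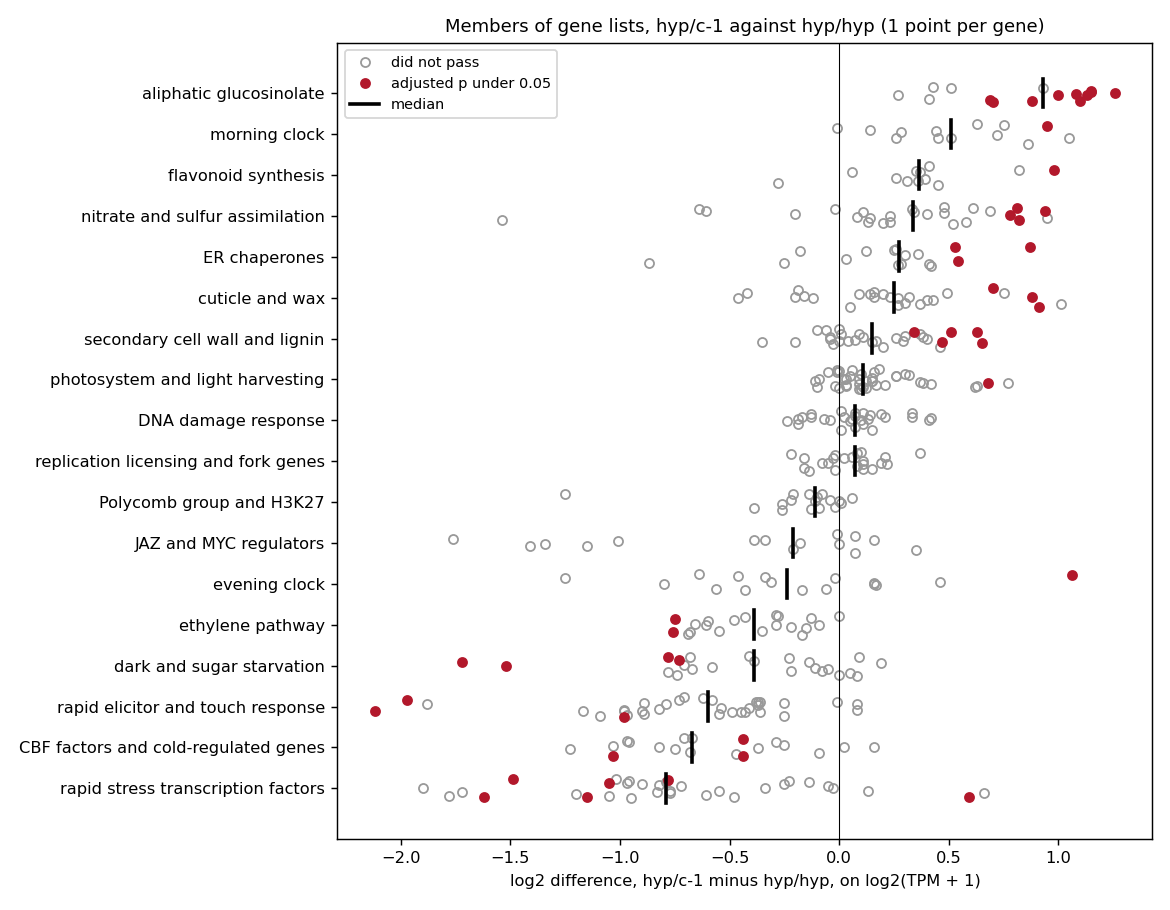
Log2 difference between hyp/c-1 and hyp/hyp (x axis, on log2(TPM + 1)) of every tested member of 18 gene lists (y axis), with filled red points for genes that passed, open grey points for the others and a black bar for the list's median. Aliphatic glucosinolate genes lie wholly to the right with a median of 0.93, the rapid stress factors lie mostly to the left with a median of -0.79, and the DNA damage and replication lists are narrow around 0.07.

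Genes induced by darkness and sugar starvation were lower in hyp/c-1 mainly through 1 library. Of 23 tested genes 4 fell (0.917% of all tested genes) and 0 rose, with a median of -0.39. But the level of the list was 0.01, -0.03 and -0.68 in hyp/c-1, against 0.19, 0.23 and 0.10 in hyp/hyp. With both replicates 3 left out the median was -0.11, and over single libraries it went from -0.57 to -0.06. In 3 members of the list the gap was nevertheless wider than the range inside either mutant, SEN1 (AT4G35770), DIN4 (AT3G13450) and the starvation gene DIN9 (AT1G67070). SEN1, a marker of dark-induced senescence, fell to 127, 126 and 64.5 TPM in hyp/c-1, against 360.0, 253 and 415 TPM in hyp/hyp and 204, 197.5 and 198.5 TPM in WT (log2 difference -1.72 with SE 0.25, adjusted p = 0.0247). SEN1 passed in 16 of 23 alternatives, and its WT libraries lay between the 2 mutants.

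The other 3 genes of the list that fell encode enzymes of branched-chain amino acid breakdown. DIN4, a subunit of the branched-chain ketoacid dehydrogenase, fell to 24.0, 23.0 and 17.6 TPM in hyp/c-1, against 35.2, 33.0 and 40.1 TPM in hyp/hyp and 34.2, 38.1 and 34.5 TPM in WT (log2 difference -0.73 with SE 0.12, adjusted p = 0.0274). MCCA (AT1G03090), a methylcrotonyl-CoA carboxylase subunit, fell to 17.9, 18.8 and 12.0 TPM in hyp/c-1, against 28.4, 26.1 and 29.5 TPM in hyp/hyp (log2 difference -0.78 with SE 0.15, adjusted p = 0.0348). BCAT-2 (AT1G10070), a branched-chain aminotransferase, fell to 7.91, 5.25 and 3.33 TPM in hyp/c-1, against 13.5, 11.9 and 29.7 TPM in hyp/hyp (log2 difference -1.52 with SE 0.32, adjusted p = 0.0412). For DIN4 and MCCA the WT libraries lay with hyp/hyp. All 3 overlap other annotated genes, whose reads cannot be told apart.

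Photosynthesis and translation genes differed by little. Of 41 photosystem genes 33 had a higher mean in hyp/c-1, 1 rose and the median was 0.11, which was 0.00 with both replicates 3 left out. Over all tested genes 39.6% had a higher mean and 1.92% rose. Lhca6 (AT1G19150), a light-harvesting protein of photosystem I, had 130, 149 and 175 TPM in hyp/c-1, against 104, 98.7 and 78.9 TPM in hyp/hyp and 187, 174 and 167 TPM in WT (log2 difference 0.68 with SE 0.13, adjusted p = 0.0355). Of 254 cytosolic ribosomal protein genes 202 had a higher mean, 0 passed in limma with 26 at an unadjusted p under 0.05 (25.1% of all tested genes), and the median was 0.12. The summed level of 10 mesophyll markers was 74800 to 95800 TPM in hyp/c-1, against 69900 to 81600 TPM in hyp/hyp and 86300 to 88300 TPM in WT. The sum of the guard cell markers was 77.2 to 89.9 TPM in hyp/c-1, against 89.8 to 95.8 TPM in hyp/hyp and 96.8 to 106 TPM in WT. Whether a shift in cell types had a part in the gene differences was not tested. Root markers had 2 of 23 members and floral organ markers 3 of 16 above the minimum, and seed markers had 0 of 18.

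Salicylic acid signalling was divided. Of 17 receptor and PR genes 2 rose and 1 fell, and the median was -0.10. Over all tested genes 1.92% rose and 0.917% fell. PR1 (AT2G14610), the classic marker of the response, had 125, 118 and 131 TPM in hyp/c-1, against 79.6, 52.0 and 68.9 TPM in hyp/hyp and 70.2, 112 and 74.6 TPM in WT (log2 difference 0.91 with SE 0.19, adjusted p = 0.0395). NIMIN1 (AT1G02450), an interactor of the receptor NPR1 (AT1G64280), had 12.0, 18.7 and 25.3 TPM in hyp/c-1, against 8.37, 6.85 and 7.66 TPM in hyp/hyp (log2 difference 1.13 with SE 0.24, adjusted p = 0.0396). NIMIN-3 (AT1G09415), of the same family, fell to 91.1, 89.3 and 87.0 TPM in hyp/c-1, against 109, 111 and 110 TPM in hyp/hyp and 66.3, 72.7 and 71.5 TPM in WT (log2 difference -0.30 with SE 0.07, adjusted p = 0.0497). NIMIN-3 had almost no spread in either mutant, but passed in only 3 of 23 alternatives.

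WRKY38 (AT5G22570), a factor induced by salicylic acid, was among the most repeated calls, with 13.5, 19.0 and 24.7 TPM in hyp/c-1, against 5.996, 4.33 and 4.19 TPM in hyp/hyp and 4.24, 3.81 and 6.14 TPM in WT (log2 difference 1.76 with SE 0.22, adjusted p = 0.019). It passed in 16 of 23 alternatives. It was 1 of 7 tested group III WRKY genes, of which no other passed, and the list's median was -0.16. DLO1 (AT4G10500), which hydroxylates salicylic acid, had 17.1, 15.8 and 20.9 TPM in hyp/c-1, against 11.1, 12.1 and 10.04 TPM in hyp/hyp and 3.61, 3.66 and 4.53 TPM in WT (log2 difference 0.64 with SE 0.12, adjusted p = 0.0362), 1 of 14 tested genes of salicylic and pipecolic acid synthesis to pass. Among 124 tested NBS-LRR and TIR resistance genes 97 had a lower mean, but 0 passed in limma with 26 at an unadjusted p under 0.05 (25.1% of all tested genes), and the median of -0.16 was 0.00 with both replicates 3 left out. Over all tested genes 39.6% had a higher mean.

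The lists of hormones of growth held 2 to 4 genes each that passed, where 2.84% of all tested genes did. For abscisic acid 3 genes rose and 1 fell of 27. P5CS1 (AT2G39800), which makes proline under water stress, had 44.4, 54.6 and 62.3 TPM in hyp/c-1, against 32.5, 27.2 and 23.3 TPM in hyp/hyp and 24.1, 19.6 and 26.95 TPM in WT (log2 difference 0.93 with SE 0.16, adjusted p = 0.0274). CYP707A3 (AT5G45340) and CYP707A2 (AT2G29090), both hydroxylases that inactivate abscisic acid, moved in opposite directions. CYP707A3 fell to 10.1, 16.7 and 9.26 TPM in hyp/c-1, against 24.9, 41.2 and 67.2 TPM in hyp/hyp (log2 difference -1.74 with SE 0.39, adjusted p = 0.0478). CYP707A2 had 1.99, 1.87 and 2.67 TPM in hyp/c-1, against 1.06, 0.911 and 1.25 TPM in hyp/hyp (log2 difference 0.61 with SE 0.13, adjusted p = 0.0435). RD22 (AT5G25610), a dehydration marker, rose by 0.59 (SE 0.11, adjusted p = 0.0368).

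In the cytokinin list 2 of 18 fell (0.917% of all tested genes) and 0 rose. The type A response regulator RR16 (AT2G40670) fell to 3.51, 2.68 and 3.34 TPM in hyp/c-1, against 5.70, 7.11 and 5.62 TPM in hyp/hyp and 12.1, 14.0 and 10.6 TPM in WT (log2 difference -0.77 with SE 0.13, adjusted p = 0.0274). CKX5 (AT1G75450), a cytokinin oxidase, fell to 0.716, 0.353 and 0.506 TPM in hyp/c-1, against 1.53, 1.37 and 1.88 TPM in hyp/hyp (log2 difference -0.77 with SE 0.13, adjusted p = 0.0274). AHP4 (AT3G16360), a histidine phosphotransfer protein chosen by the size of its change, fell to 5.38, 2.65 and 1.76 TPM in hyp/c-1, against 11.4, 11.3 and 11.4 TPM in hyp/hyp and 1.45, 2.49 and 2.42 TPM in WT (log2 difference -1.62 with SE 0.26, adjusted p = 0.027). RR16 was lowest in hyp/c-1 and highest in WT, whereas AHP4 in WT overlapped hyp/c-1.

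Of 31 gibberellin and brassinosteroid genes 2 fell and 0 rose, and both encode DELLA repressors of gibberellin signalling. RGL1 (AT1G66350) fell to 14.9, 13.1 and 13.5 TPM in hyp/c-1, against 20.2, 22.3 and 29.6 TPM in hyp/hyp and 20.8, 24.5 and 21.8 TPM in WT (log2 difference -0.74 with SE 0.13, adjusted p = 0.0284). GAI (AT1G14920) fell to 49.1, 46.4 and 41.8 TPM in hyp/c-1, against 56.6, 60.3 and 61.7 TPM in hyp/hyp and 57.8, 65.0 and 60.2 TPM in WT (log2 difference -0.37 with SE 0.09, adjusted p = 0.0497). For both, WT overlapped hyp/hyp. Of 38 auxin genes 1 rose and 1 fell, where 2.84% of all tested genes passed: the repressor IAA14 (AT4G14550) rose by 0.77 (SE 0.17, adjusted p = 0.0479), and WES1 (AT4G27260), an enzyme that conjugates auxin to amino acids, fell by 0.90 (SE 0.20, adjusted p = 0.0436).

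Genes of leaf form and cell division are the closest to the developmental question. Of 27 tested KNOX, meristem and leaf polarity genes 1 rose and 1 fell, where 2.84% of all tested genes passed in either direction. TCP10 (AT2G31070), which promotes differentiation and flat growth of leaves, had 28.7, 30.3 and 29.9 TPM in hyp/c-1, against 21.5, 22.2 and 19.4 TPM in hyp/hyp and a mean of 26.5 ± 0.654 TPM in WT (SD, n = 3) (log2 difference 0.48 with SE 0.08, adjusted p = 0.027). ARL (AT2G44080), which promotes cell expansion, fell to 28.0, 19.7 and 13.5 TPM in hyp/c-1, against 46.1, 42.3 and 35.1 TPM in hyp/hyp and 18.7, 16.7 and 20.8 TPM in WT (log2 difference -1.03 with SE 0.21, adjusted p = 0.0399). ARL in hyp/hyp was above WT and hyp/c-1 overlapped WT.

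Of 37 mitotic cell cycle genes 1 rose (1.92% of all tested genes), the D-type cyclin CYCD3;3 (AT3G50070), which holds leaf cells in division. It had 5.82, 6.20 and 6.15 TPM in hyp/c-1, against 3.32, 3.21 and 2.99 TPM in hyp/hyp and 5.56, 4.95 and 4.96 TPM in WT (log2 difference 0.76 with SE 0.09, adjusted p = 0.019). Both mutants were compact, the WT mean was nearer to hyp/c-1, and the gene passed in 15 of 22 alternatives. EXPA16 (AT3G55500), an expansin of cell wall loosening, fell to 5.32, 4.03 and 2.33 TPM in hyp/c-1, against 9.53, 13.8 and 16.3 TPM in hyp/hyp and 36.5, 38.5 and 32.1 TPM in WT (log2 difference -1.56 with SE 0.23, adjusted p = 0.0247). EXPA16 passed in 16 of 23 alternatives. EXPA10 (AT1G26770) rose by 0.76 (SE 0.16, adjusted p = 0.0408), so 1 of the 13 tested alpha-expansins went each way. XTH7 (AT4G37800), a xyloglucan-modifying enzyme, rose by 0.73 (SE 0.14, adjusted p = 0.0377), 1 of 21 tested XTH genes to pass.

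Lists tied to the function of ATXR5 and ATXR6 gave 0 genes that passed in limma, against 2.84% of all tested genes, a share that comes to few genes in lists of this size. An unadjusted p under 0.05 was found for 25.1% of all tested genes. Among 28 DNA damage response genes 3 had an unadjusted p under 0.05 and the median was 0.07. NAC044 (AT3G01600), induced by DNA damage, had 3.24, 3.81 and 3.02 TPM in hyp/c-1, against 2.69, 1.99 and 2.14 TPM in hyp/hyp and 0.282, 0.0275 and 0.0585 TPM in WT (log2 difference 0.42, adjusted p = 0.11). Among 22 replication genes 2 had an unadjusted p under 0.05, with a median of 0.07. CDC6 (AT2G29680), which loads the replicative helicase, had 4.01, 6.04 and 5.09 TPM in hyp/c-1, against 4.32, 3.92 and 2.84 TPM in hyp/hyp (log2 difference 0.37, adjusted p = 0.19). Both mutants of NAC044 stood far above WT, and a difference between them did not pass.

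Of 34 DNA methylation and H3K9 silencing genes 2 had an unadjusted p under 0.05, with a median of -0.03 that changed sign when all genes were rescaled by quantile or median-of-ratios normalization. Of 17 Polycomb and H3K27 genes 3 had an unadjusted p under 0.05, with a median of -0.11. JMJD5 (AT3G20810), a histone demethylase that is also clock-regulated, had 18.6, 10.3 and 7.47 TPM in hyp/c-1, against 20.1, 26.6 and 41.7 TPM in hyp/hyp and 63.7, 83.7 and 48.4 TPM in WT (log2 difference -1.25 with SE 0.33, adjusted p = 0.0697). Flowering repressors and integrators, with 8 and 7 tested members, also gave 0 that passed, with 5 and 3 at an unadjusted p under 0.05. SNZ (AT2G39250), a floral repressor, had 9.84, 12.8 and 21.9 TPM in hyp/c-1, against 7.41, 7.54 and 6.10 TPM in hyp/hyp (log2 difference 0.92 with SE 0.23, adjusted p = 0.0638), without overlap.

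Squalene and triterpene genes differed in both directions. Of 10 tested genes 2 rose and 1 fell, where 1.92% of all tested genes rose and 0.917% fell. LUP1 (AT1G78970), a lupeol synthase that overlaps another annotated gene, fell to 7.94, 6.18 and 5.84 TPM in hyp/c-1, against 14.0, 15.1 and 19.2 TPM in hyp/hyp and 18.2, 17.8 and 21.4 TPM in WT (log2 difference -1.16 with SE 0.14, adjusted p = 0.019), and passed in 16 of 23 alternatives. SQP1 (AT5G24150), a squalene monooxygenase homologue, had 31.6, 35.6 and 52.4 TPM in hyp/c-1, against 15.3, 9.78 and 5.22 TPM in hyp/hyp and 13.8, 9.70 and 16.6 TPM in WT (log2 difference 1.96 with SE 0.33, adjusted p = 0.0274). SQE3 (AT4G37760) rose by 0.87 (SE 0.18, adjusted p = 0.0418). SQE6 (AT5G24160), a squalene monooxygenase that is not in the list, also rose (log2 difference 0.41, adjusted p = 0.0412). SQE6 and SQP1 lie 112 and 123 kb from ATXR6, in a window described below. For both LUP1 and SQP1, WT overlapped hyp/hyp and not hyp/c-1.

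Heat shock genes gave 2 that rose and 1 that fell of 18, where 1.92% of all tested genes rose and 0.917% fell. ROF2 (AT5G48570), a co-chaperone, had 9.42, 10.2 and 11.5 TPM in hyp/c-1, against 6.29, 7.06 and 5.64 TPM in hyp/hyp (log2 difference 0.63 with SE 0.13, adjusted p = 0.0388). The small heat shock gene HSP17.4 (AT3G46230) had 3.15, 3.88 and 3.92 TPM in hyp/c-1, against 1.52, 2.25 and 1.11 TPM in hyp/hyp (log2 difference 0.84 with SE 0.18, adjusted p = 0.0438). The heat factor HSFA7A (AT3G51910) fell to 3.73, 3.89 and 3.20 TPM in hyp/c-1, against 6.69, 5.002 and 6.96 TPM in hyp/hyp (log2 difference -0.64 with SE 0.13, adjusted p = 0.0396). None of the 3 overlapped between the mutants.

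Among the 10 genes with the largest rise, SK9 (AT3G21850), an SKP1-like subunit of ubiquitin ligases, came nearest to presence against absence. It had 2.45, 3.61 and 2.34 TPM in hyp/c-1, against 0, 0 and 0.519 TPM in hyp/hyp and 0, 0.346 and 0.122 TPM in WT (log2 difference 1.71 with SE 0.21, adjusted p = 0.019). SK9 passed in 16 of 22 alternatives. AT5G03350, a legume lectin family gene, had 178.5, 295 and 364 TPM in hyp/c-1, against 128, 125 and 88.9 TPM in hyp/hyp and 130, 111 and 158 TPM in WT (log2 difference 1.24 with SE 0.25, adjusted p = 0.0374). The serine carboxypeptidase-like gene scpl10 had 5.68, 6.87 and 7.32 TPM in hyp/c-1, against 2.74, 1.99 and 1.20 TPM in hyp/hyp (log2 difference 1.38 with SE 0.21, adjusted p = 0.0249). AT5G03350 and scpl10 overlap other annotated genes. Also in this set were AT1G13650, LEA3 (AT1G02820) and AT3G21460, with log2 differences of 2.20, 1.66 and 1.56, beside SQP1, WRKY38, FMO GS-OX3 and MS2.

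In all of the 10 genes with the largest fall except AHP4, hyp/hyp replicate 3 was the highest mutant library. AT3G02840, which has an armadillo-repeat product, fell to 10.4, 8.58 and 5.04 TPM in hyp/c-1, against 19.4, 37.3 and 107 TPM in hyp/hyp and 7.77, 7.10 and 13.3 TPM in WT (log2 difference -2.34 with SE 0.51, adjusted p = 0.0442). AT3G29000, a calcium-binding EF-hand gene, fell to 22.7, 24.3 and 14.9 TPM in hyp/c-1, against 47.8, 53.3 and 100.2 TPM in hyp/hyp (log2 difference -1.60 with SE 0.33, adjusted p = 0.0396). AT2G25297 and AT4G14450 had log2 differences of -2.06 and -1.93. The others were PP2-A5, CML38, CYP707A3, SEN1, AHP4 and ERF13. AT3G02840 overlaps another annotated gene.

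Genes close to ATXR6 on chromosome 5 passed more often than genes elsewhere; this window was examined after the values had been seen. Within 500 kb of ATXR6, 12 of 157 tested genes passed (7.64%, against 2.84% of all tested genes), of which 9 rose and 3 fell. Within 500 kb of ATXR5, whose atxr5 allele both mutants share, 1 of 223 passed (0.448%), the kinesin gene KAC1 (AT5G10470). Each chromosome was also divided into bins of 1 Mb, and the bin from 8 to 9 Mb of chromosome 5, where ATXR6 lies, ranked 1 of 111 with at least 20 tested genes, with 12 of 144 passed (8.33%). By chromosome 147 of 4651, 75 of 2682, 99 of 3535, 76 of 2707 and 108 of 4111 tested genes passed on chromosomes 1, 2, 3, 4 and 5.

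Of the 12 genes, SQP1, LSU2 and SIGE are members of lists (triterpenes, sulfur and nitrate, clock output), and AT5G23820, AT5G24200, AT5G24215 and GDU5 had a gap wider than the range inside either mutant. AT5G24200, an alpha/beta-hydrolase gene at 92.2 kb from ATXR6, had 4.99, 5.18 and 6.38 TPM in hyp/c-1, against 2.53, 2.32 and 2.56 TPM in hyp/hyp and 1.72, 1.57 and 2.19 TPM in WT (log2 difference 0.90 with SE 0.12, adjusted p = 0.019). SQE6 (AT5G24160), a squalene monooxygenase at 112 kb, had 39.1, 37.3 and 32.4 TPM in hyp/c-1, against 26.4, 26.0 and 28.6 TPM in hyp/hyp and 28.8, 28.2 and 29.0 TPM in WT (log2 difference 0.41 with SE 0.09, adjusted p = 0.0412). AT5G24215, an uncharacterized gene at 73.7 kb, fell to 2.57, 1.68 and 1.97 TPM in hyp/c-1, against 4.85, 5.41 and 4.03 TPM in hyp/hyp and 8.63, 9.96 and 9.62 TPM in WT (log2 difference -0.91 with SE 0.13, adjusted p = 0.0247). GDU5 (AT5G24920), at 289 kb, fell by 0.70 (SE 0.11, adjusted p = 0.0274).

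AT5G24340, the gene next to ATXR6, which encodes a product with an exonuclease domain, had 21.4, 22.7 and 12.7 TPM in hyp/c-1, against 24.8, 32.9 and 73.2 TPM in hyp/hyp and 8.22, 6.66 and 7.83 TPM in WT, and did not pass (log2 difference -1.05, adjusted p = 0.106). Both mutants were above WT at AT5G24340, with replicate 3 of hyp/hyp the highest. The mutants differ in their alleles at ATXR6, so nearness to ATXR6 and genotype cannot be told apart here.

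**Figure D5:**
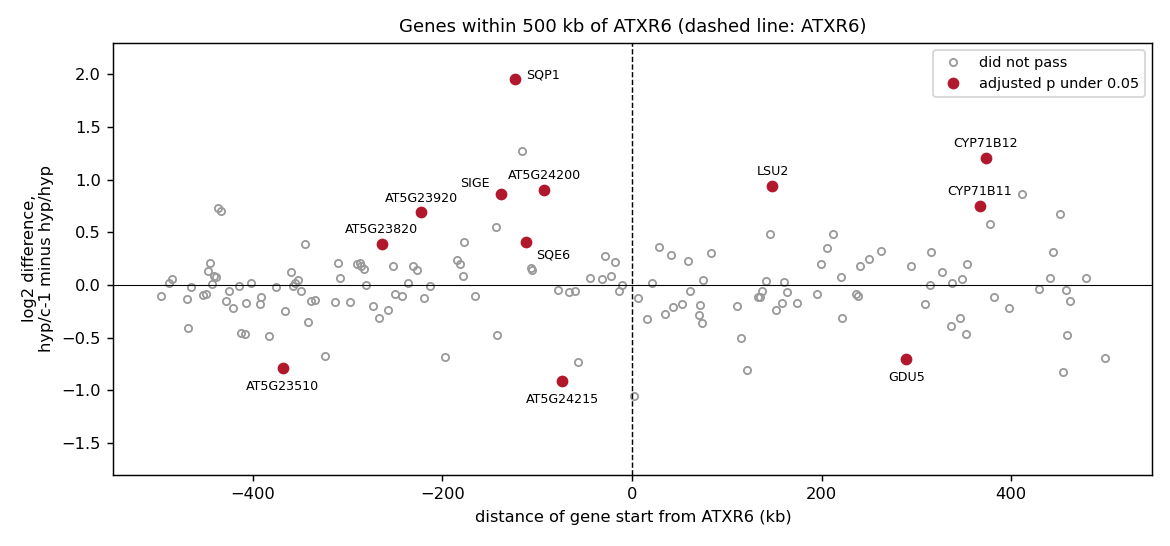
Log2 difference between hyp/c-1 and hyp/hyp (y axis) of the 157 tested genes within 500 kb of ATXR6, by the distance of their start from ATXR6 in kb (x axis, dashed line at ATXR6), with filled red points for the 12 that passed and open grey points for the others. The genes that passed lie on both sides, from AT5G23510 at -368 kb to CYP71B12 at 373 kb, with 9 above 0 and 3 below.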

How the data were processed

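The deposited table held TPM values per gene for 9 libraries. Per the submitters' processing notes, fastp 0.20.1, HISAT2 2.1.10, DESeq2 1.26.0 and TAIR10 were used, and the role of each is not given in the sources used here. The TPM of the authors' table were read counts scaled by the whole gene span, introns included: at least 99.98% of low values were whole reads within 0.02. The comparison used limma 3.58.1 in R 4.3.3 on log2(TPM + 1), with 1 mean per genotype over 9 libraries (6 residual degrees of freedom), a mean-variance trend and Benjamini-Hochberg adjustment over the 17767 genes that averaged 1 TPM or more in the 6 mutant libraries. The test was checked on simulated data of 17767 genes, and recovered 85 of 100 genes changed by 1 log2 unit, with 7 false calls. The simulation gave each gene 1 spread for all genotypes and drew genes independently, unlike these libraries. It thus does not show whether the test holds with unequal spread between genotypes, or with genes that vary together. With a variance weight per genotype, 2 genes passed in place of 505. "Passed", "rose" and "fell" mean an adjusted p under 0.05. WT shaped the shared spread only.

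Genes named are ATXR5, ATXR6, the 10 with the largest rise and the 10 with the largest fall among genes that passed by at least 2-fold without overlap, and in each list described up to 4 members that passed, by adjusted p, or, where 0 passed, up to 2 with the largest absolute difference. The members and lists were chosen with earlier results of these data known. Other members of lists that are named (the remaining glucosinolate genes, CCA1, TOC1, WRKY40, SHD, BZIP60, BZIP28, DIN9) and the genes near ATXR6 were chosen after their values were seen. Symbols, positions and promoter sequences are from RefSeq (TAIR10.1), which matched 27445 of 27655 genes by locus tag; the other 210 are organelle genes. Besides the genes remarked on above, AOP1, UTR3, P5CS1, CKX5, AHP4, AT5G24215 and BAM6 overlap other annotated genes, whose reads cannot be told apart. Overlaps were not remarked on for every gene. Alternatives changed the pseudocount (0.1), the minimum (none or 5 TPM), the scaling, the libraries in the fit, the treatment of the spread and the test (voom on recovered reads), and left out each library. Leaving out both replicates 1 or both replicates 3 was added after seeing the data.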

Additional observations from a re-analysis of the deposited data

How the results depend on the processing

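The count of 505 genes kept within 1.5 times under a pseudocount of 0.1, a minimum of 5 TPM, 3 rescalings, an untrended prior and voom on recovered reads (392 to 554 genes). It was 220 with no expression minimum, 2 with a variance weight per genotype and 0 with the 6 mutant libraries alone (smallest adjusted p 0.0937). Leaving out 1 library gave 0 to 2861 genes, and leaving out both replicates 1 gave 3570 and both replicates 3 gave 49, of which 43 were among the 505. The 92 genes of at least 2-fold became 139 with a pseudocount of 0.1, 34 with no minimum, 2 with the variance weight, 0 with the 6 mutant libraries alone, 0 to 326 with 1 library left out, 565 without both replicates 1 and 12 without both replicates 3. The causes were not tested.

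Deviations of same-numbered mutant libraries correlated at -0.188, 0.101 and -0.267. On the second principal component, however, same-numbered mutant libraries lay close together. It placed hyp/c-1 replicates 1, 2 and 3 at 10.92, 4.39 and -16.49, and hyp/hyp at 11.5, 5.63 and -15.96. The correlations alone thus do not show that the replicate number was without structure. With the number as a replicate block, 0 genes passed in 9 libraries (smallest adjusted p 0.0576; 3756 genes at an unadjusted p under 0.05) and 0 passed in the 6 mutant libraries (0.31; 2333 genes), also at 2-fold. Of 79 lists, 12 had an absolute median of at least 0.3, and 0 of these changed sign under any of 23 alternatives. These lists were picked for a large median, and alternatives that change only the spread or the WT libraries cannot move it. Depth bears on genes near 1 TPM, whose libraries hold few reads.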

Other observations

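BAM6 and AT2G25450 had a gap between the mutants wider than the range inside either, belong to no list, and were chosen after their values were seen. BAM6, which encodes a beta-amylase homologue, had 14.1, 13.1 and 15.0 TPM in hyp/c-1 replicates 1, 2 and 3, against 7.12, 6.94 and 6.83 TPM in hyp/hyp and 11.2, 10.6 and 14.8 TPM in WT (log2 difference 0.92, SE 0.12, adjusted p = 0.019 in limma). AT2G25450, a 2-oxoglutarate-dependent oxygenase gene, had 349, 370.2 and 450 TPM in hyp/c-1, against 229, 211 and 201 TPM in hyp/hyp and 393, 334 and 391 TPM in WT (log2 difference 0.86, SE 0.11, adjusted p = 0.019). In both genes WT overlapped hyp/c-1 or lay nearer to it than to hyp/hyp.

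Gene families gathered by words in their product names gave calls in both directions. Of 117 tested cytochromes P450, 11 rose and 3 fell, with a median of 0.03. Among these, CYP71B22 fell to 44.6, 32.7 and 26.1 TPM in hyp/c-1, against 73.6, 69.3 and 73.7 TPM in hyp/hyp and 44.8, 53.3 and 56.6 TPM in WT (log2 difference -1.08, SE 0.17, adjusted p = 0.0247), and passed in 15 of 23 alternatives. Of 35 cysteine-rich receptor-like kinases 2 rose and 0 fell although 28 had a lower mean. Of 79 pectin enzymes 3 rose and 3 fell. Of 75 histone genes 63 had a lower mean in hyp/c-1, 1 fell and 0 rose, with a median of -0.16. Over all tested genes 1.92% rose, 0.917% fell and 39.6% had a higher mean.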
